A study of Mus musculus with 6 samples.

Results

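The genes described are 10 components of the myostatin and activin pathway: the ligand genes Mstn, Gdf11 and Inhba, the follistatin family genes Fst and Fstl1, the receptor genes Acvr2a, Acvr2b and Acvr1b, and the signal transducers Smad3 and Smad7. They were picked by symbol as components of the pathway from the 24054 genes of the RNA-seq count table, with earlier results of these data known, so counts over the 10 are not those of a blind selection. All 10 were read in all 6 libraries. The libraries came from gastrocnemius muscle of male C57BL/6 mice. Of these, 3 carried a deletion of the transcription factor IRF4 in muscle (MI4KO, Irf4 flox/flox with Myl1-cre) and 3 overexpressed IRF4 in muscle (MI4OE, a Rosa26 transgene freed from a stop cassette by Myl1-cre). Both groups carried Myl1-cre as the driver, which is selective for skeletal muscle, whereas the libraries held RNA of the whole tissue. Gastrocnemius of wild-type or Cre-free mice was not analysed here. A difference therefore sets overexpression against loss and cannot be placed against a normal level. The labels give a high fat diet for every library, whereas the study describes chow, so the diet is in doubt, and no age was given for these samples. The question behind the comparison was which transcripts change when IRF4 in muscle is removed or raised. The sources describe 3 muscles per group taken from mice of that genotype, without saying outright that each came from a different animal, and p-values measure the spread between these libraries.

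Myostatin is secreted by muscle fibres and restrains muscle growth. It, GDF11 and the activins bind the type II receptors ACVR2A and ACVR2B, which recruit a type I receptor such as ACVR1B (ALK4), and the receptor pair phosphorylates SMAD2 and SMAD3, which join SMAD4 and move to the nucleus. Follistatin captures these ligands outside the cell, and SMAD7, itself induced by the pathway, blocks the receptors from within.

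The libraries held from 18828605 to 29239585 estimated counts. Irf4 itself had 6, 0 and 2 counts in MI4KO and 2864, 10557 and 5911 in MI4OE (log2 fold change 11.24, SE 0.78, adjusted p = 0.0055). Every MI4OE library thus held far more Irf4 than any MI4KO library, but without a normal level the MI4KO counts cannot show the deletion. Irf4 passed the low-count filter only through MI4OE, so its p is no support. Library MI4OE replicate 1 stood apart from the rest. Other libraries stood apart in single lists, such as MI4KO replicate 1 in the glucocorticoid and fasting list and MI4KO replicate 3 in the adipocyte list. MI4OE replicate 1 was the shallowest and differed in its fibre markers. The 8 slow fibre markers summed to 6910 CPM (counts-per-million of the library) in it, against 49.3 and 636 in the other MI4OE libraries and from 37.5 to 132 in MI4KO. Its 9 fast fibre markers summed to 141000 CPM, against 202000 to 267000 in the other 5 libraries, but its genes did not all move together. Myh1 and Myh2, fast myosin genes in it, were highest in that library, at 10200 CPM against 566 to 5960 and at 7420 CPM against 3.44 to 1810. In MI4KO replicate 1, the 12 genes of the glucocorticoid and fasting response summed to 3020 CPM, against 1020 to 1350 in the other 5 libraries. Among them Mt2, a metallothionein gene, was at 123 CPM against at most 6.89, and Trim63, a muscle ubiquitin ligase gene, at 810 against at most 263. The summed fibroblast list ran from 229 to 382 CPM in MI4KO and from 398 to 550 in MI4OE, with 8 of 9 markers higher in MI4OE. The endothelial list ran from 86.1 to 140 and from 161 to 318 CPM, with 7 of 7 higher. The adipocyte list ran from 184 to 966 and from 113 to 266 CPM, with 7 of 7 lower in MI4OE and a median log2 fold change of -3.62. Fabp4, at 260 of the 266 CPM in MI4OE replicate 1, carried most of that sum and differed by 1.58-fold, whereas the other 6 differed by 11.6- to 16.8-fold, 5 of them without overlap. No marker of these 6 lists was at 0 in all libraries. In bulk tissue, fewer cells of a type and less RNA per cell cannot be told apart.

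All 10 genes passed the filter on low counts and were tested between MI4OE and MI4KO with edgeR's quasi-likelihood test. None of the 10 passed an adjusted p of 0.05 with Benjamini-Hochberg adjustment over the 12660 genes tested, and none did by DESeq2, edgeR's exact test or limma. Few genes did anywhere, 0.0237% of those tested by the quasi-likelihood test, 0.877% by DESeq2 and 0.853% by the exact test. At a looser criterion of a 1.5-fold difference with an unadjusted p under 0.05, 5 of the 10 were called, against 6.64% of all genes tested, and the same 5 had an unadjusted p under 0.05 at any fold, against 7.58%. Gdf11 and Smad3 were lower in MI4OE (2.28% of all genes), and Inhba, Fstl1 and Smad7 were higher (4.36% of all genes). Inhba passed the low-count filter only through MI4OE, where it was higher, so its place in these counts is no support. At a mean CPM of at least 1, which leaves Inhba out, 4 of 9 met the criterion, against 6.3% of all genes. Without MI4OE replicate 1 the count was 1 of 10, Gdf11, against 4.56% of all genes. It was the same with MI4KO replicate 1 left out, against 4.88%, so both counts lay near the background. Leaving out MI4KO replicate 2 gave 2, Gdf11 and Acvr2b, against 6.33%. The ranges of the groups did not overlap for 4 of the 10, Gdf11, Inhba, Acvr2b and Smad7, against 12.9% of all genes tested. Of these, 3 were higher in MI4OE, Inhba under the same limit, against 7.38%, and 1 was lower, against 5.48%. The median log2 fold change over the 10 was -0.12, with 4 higher and 6 lower, and the median over all genes tested was -4.35e-05.

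**Figure D1:**
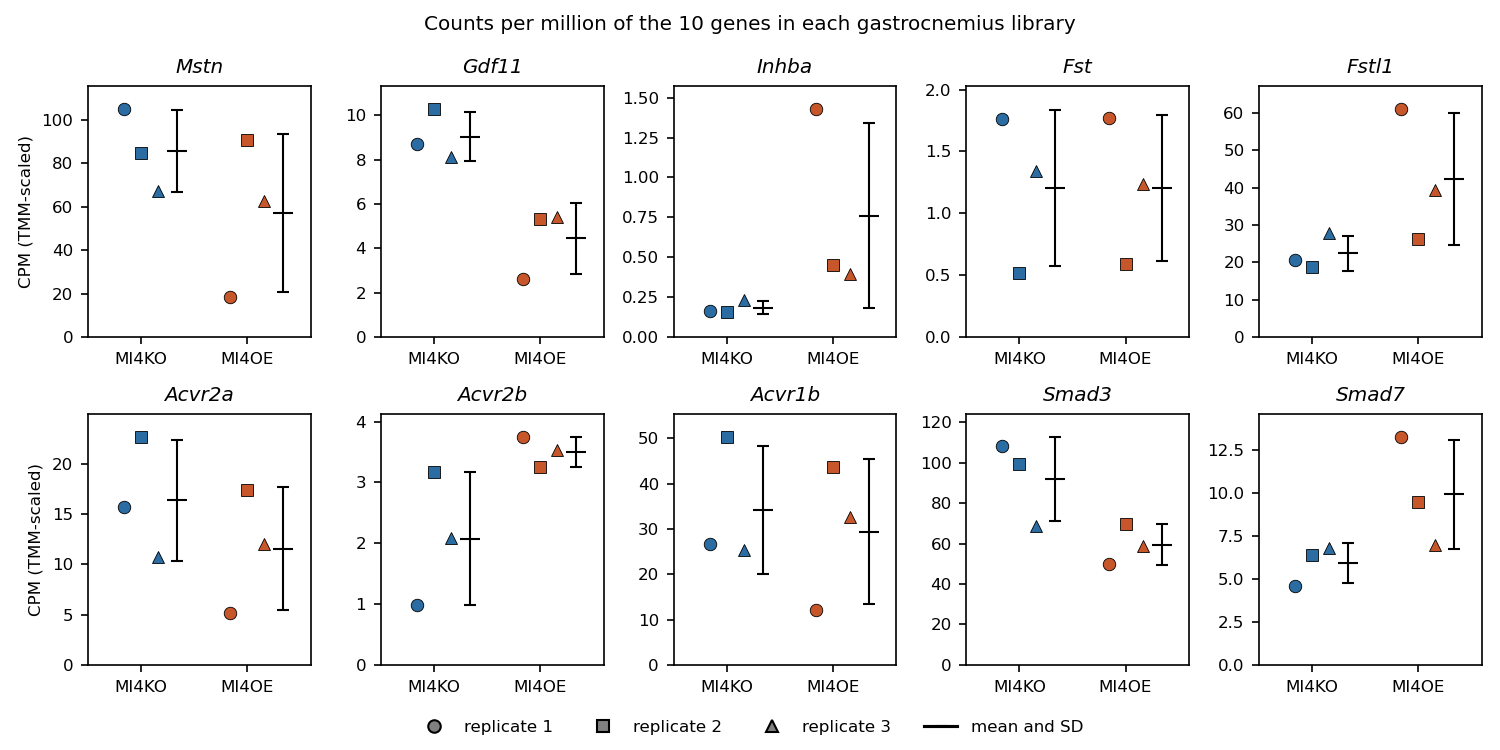
Level of the 10 genes in TMM-normalised CPM in each of the 3 MI4KO and 3 MI4OE libraries, 1 panel per gene with its own axis from 0, with a point per library (shape for replicate) and the group mean with its SD beside them. The groups are apart for Gdf11, Inhba, Acvr2b and Smad7, while Mstn runs from 67.4 to 105 CPM in MI4KO and from 18.4 to 90.5 in MI4OE.

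Among the ligands, Gdf11 was lower and Inhba higher in every MI4OE library than in any MI4KO library, and Mstn had the widest ratio of highest to lowest MI4OE library, 4.92. Their RefSeq promoters, 250 bases up to the transcription start on the gene's strand, are shown because these 3 were the members, of the 8 with a promoter entry, that held the TATA box letters TATAAA. Of 32851 promoters of that length, 12.4% held them on either strand. Capitals mark TATAAA in each and, in Mstn, CAGACA, the letters of the SMAD-binding CAGA box. In build GRCm38.p6 these are chr1:53061390-53061639 (+) for Mstn, chr10:128891719-128891968 (-) for Gdf11 and chr13:16011601-16011850 (+) for Inhba.
Mstn: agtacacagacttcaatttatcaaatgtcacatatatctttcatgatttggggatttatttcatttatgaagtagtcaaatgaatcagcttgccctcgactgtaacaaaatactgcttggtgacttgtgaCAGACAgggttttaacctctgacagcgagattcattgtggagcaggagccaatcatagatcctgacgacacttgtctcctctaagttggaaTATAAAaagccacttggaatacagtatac
Gdf11: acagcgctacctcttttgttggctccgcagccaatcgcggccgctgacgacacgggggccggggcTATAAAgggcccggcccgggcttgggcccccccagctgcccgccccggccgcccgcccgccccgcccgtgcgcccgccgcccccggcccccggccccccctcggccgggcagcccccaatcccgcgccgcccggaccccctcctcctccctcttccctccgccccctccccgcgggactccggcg
Inhba: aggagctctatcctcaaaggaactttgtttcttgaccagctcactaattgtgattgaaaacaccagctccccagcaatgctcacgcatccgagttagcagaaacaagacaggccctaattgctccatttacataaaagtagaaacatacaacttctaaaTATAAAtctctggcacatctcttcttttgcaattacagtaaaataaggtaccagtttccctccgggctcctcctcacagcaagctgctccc
The first T of TATAAA lay 29 bases before the start in Mstn, 185 in Gdf11 and 91 in Inhba. CAGACA was in 1 of the 8 promoters, against 17.1% of all. An IRF element and an ETS-IRF element, each searched on both strands, were in none of the 8, against 2.98% and 0.594% of all promoters. Bases that were G or C made up 38.4% of the Mstn promoter and 43.2% of the Inhba promoter, against 81.2% in Gdf11 and a median of 52.4% over all promoters.

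Mstn, which encodes myostatin, measured 105, 84.6 and 67.4 CPM in MI4KO and 18.4, 90.5 and 62.7 in MI4OE. MI4OE replicate 1 lay far below the other 5 libraries, and the groups overlapped. The means were 85.8 ± 19 and 57.2 ± 36.4 CPM (SD, n = 3 each) (log2 fold change -0.58, SE 0.50, adjusted p = 0.846). Leaving out MI4OE replicate 1 gave -0.17 on the log2 scale, and leaving out MI4OE replicate 2 gave -1.08.

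Gdf11, the closest relative of Mstn, measured 8.72, 10.3 and 8.13 CPM in MI4KO and 2.61, 5.35 and 5.43 in MI4OE. Every MI4OE library lay below every MI4KO library. The means of 9.05 ± 1.12 and 4.46 ± 1.61 CPM (SD, n = 3 each) differed by 2.02-fold, a log2 fold change of -1.01 (SE 0.29, unadjusted p = 0.00927, adjusted p = 0.521). By exact permutation (two-sided) p was 0.1, which 3 against 3 libraries cannot go below.

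Inhba encodes the subunit of activin A and had the lowest mean level of the 10 in MI4KO. It had 4, 4 and 7 counts in MI4KO and 29, 13 and 9 in MI4OE, which came to 0.164, 0.158 and 0.235 CPM and to 1.43, 0.454 and 0.397 CPM. Every MI4OE library lay above every MI4KO library, with MI4OE replicate 1 highest. The log2 fold change was 1.97 (SE 0.65, unadjusted p = 0.0162, adjusted p = 0.546), but Inhba entered the test only through its counts in MI4OE, so this p is no support for a difference. The summed counts, set against the summed library sizes, gave a rate ratio of 3.77 with an exact 95% interval of 2.09 to 7.23, which covers counting error only and has the same limit. The log2 fold change was 1.17 without MI4OE replicate 1 and 0.57 by limma on log2(TPM + 1), and without MI4OE replicate 2 Inhba missed the low-count filter.

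Neither follistatin family gene passed the adjusted threshold. Fst, which encodes the secreted protein that neutralises activins and myostatin, measured 1.76, 0.515 and 1.34 CPM in MI4KO and 1.77, 0.594 and 1.24 in MI4OE. The means were 1.21 ± 0.634 and 1.2 ± 0.589 CPM (SD, n = 3 each). Each group held 1 low library, and the ranges overlapped almost entirely. The log2 fold change was -0.02 (SE 0.56, adjusted p = 0.997), and it was 0.12 when libraries were scaled by total counts alone. The rate ratio of 0.936 had an exact 95% interval of 0.688 to 1.27 that covers counting error only.

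Fstl1 encodes a secreted glycoprotein with a follistatin-like domain that is abundant in connective tissue cells. It measured 20.7, 18.9 and 27.8 CPM in MI4KO and 61.1, 26.3 and 39.5 in MI4OE. MI4OE replicate 1 was highest, and MI4OE replicate 2 lay within the MI4KO range. The means of 22.5 ± 4.71 and 42.3 ± 17.6 CPM (SD, n = 3 each) differed by 1.88-fold (log2 fold change 0.91, SE 0.31, unadjusted p = 0.0209, adjusted p = 0.556). The difference was 0.54 on the log2 scale without MI4OE replicate 1, where Fstl1 missed the looser criterion, as it did without MI4KO replicate 1 (0.85) or MI4KO replicate 2 (0.79). The fibroblast list, from 229 to 382 CPM in MI4KO and from 398 to 550 in MI4OE, moved the same way as Fstl1, and its part in the difference was not tested.

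Among the receptors, neither type II receptor nor the type I receptor passed either threshold with all 6 libraries. Acvr2a, the more abundant type II receptor transcript in MI4KO, measured 15.7, 22.7 and 10.7 CPM in MI4KO and 5.21, 17.4 and 12.0 in MI4OE. Only MI4OE replicate 1 fell outside the MI4KO range. The log2 fold change was -0.50 (SE 0.44, adjusted p = 0.851). It was -0.16 with MI4OE replicate 1 left out, -0.20 with MI4KO replicate 2 left out and -0.93 with MI4OE replicate 2 left out. Of the 5637 runs of 50 bases in its transcripts in GENCODE M21, 397 (7.04%) also occurred in transcripts of Orc4 on the opposite strand. The libraries were stranded, but the strand setting of the counting was not given in the sources used here, so reads from that stretch may not have been told apart. Acvr2a was the member with fractional counts, and the other 9 shared no such run.

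Acvr2b, the second type II receptor, measured 0.983, 3.17 and 2.08 CPM in MI4KO and 3.74, 3.25 and 3.53 in MI4OE. The MI4OE libraries lay close together and above all MI4KO libraries, though MI4KO replicate 2 came close to the lowest of them. The means were 2.08 ± 1.09 and 3.51 ± 0.245 CPM (SD, n = 3 each), with a log2 fold change of 0.75 (SE 0.40, adjusted p = 0.729) and a two-sided exact permutation p = 0.1. The highest library was 3.23-fold above the lowest within MI4KO and 1.15-fold within MI4OE. Leaving out MI4KO replicate 1 brought the log2 fold change to 0.41, and leaving out MI4KO replicate 2 brought it to 1.17, where Acvr2b met the looser criterion (unadjusted p = 0.0192, adjusted p = 0.644).

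Acvr1b, the type I receptor ALK4, measured 26.7, 50.4 and 25.4 CPM in MI4KO and 12.1, 43.6 and 32.6 in MI4OE. MI4KO replicate 2 was highest and MI4OE replicate 1 lowest, while the remaining MI4OE libraries lay between the MI4KO libraries. The log2 fold change of -0.21 (SE 0.46, adjusted p = 0.942) turned to 0.17 when MI4KO replicate 2 was left out and to 0.16 when MI4OE replicate 1 was.

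Smad3 was lower and Smad7 higher in MI4OE by mean. Smad3, the receptor-activated SMAD that carries the signal to the nucleus, measured 108, 99.4 and 68.6 CPM in MI4KO and 49.7, 69.8 and 58.8 in MI4OE. MI4KO replicates 1 and 2 were above every MI4OE library, and MI4KO replicate 3 lay within the MI4OE range. The means of 92.1 and 59.4 CPM differed by 1.55-fold (log2 fold change -0.63, SE 0.22, unadjusted p = 0.0236, adjusted p = 0.569). Smad3 missed the looser criterion when libraries were scaled by total counts alone (-0.53), by limma on TPM, and without MI4KO replicate 1 (-0.51), MI4KO replicate 2 (-0.59), MI4OE replicate 1 (-0.52) or MI4OE replicate 3 (-0.64). MI4KO replicate 1, highest for both Smad3 and Mstn, was also the library with the high glucocorticoid and fasting list, whose part in these values was not tested.

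Smad7, the inhibitory SMAD, measured 4.59, 6.38 and 6.82 CPM in MI4KO and 13.3, 9.51 and 6.98 in MI4OE. All MI4OE libraries were above all MI4KO libraries, the closest of them by a narrow margin. The means of 5.93 ± 1.18 and 9.92 ± 3.17 CPM (SD, n = 3 each) differed by 1.67-fold (log2 fold change 0.74, SE 0.28, unadjusted p = 0.0292, adjusted p = 0.587). The log2 fold change was 0.47 without MI4OE replicate 1. Smad7 missed the looser criterion there, without MI4KO replicate 1 (0.58) or MI4KO replicate 2 (0.78), and by limma on log2(TPM + 1) (0.56) and log2(TPM + 0.1) (0.75). The endothelial list, from 86.1 to 140 CPM in MI4KO and from 161 to 318 in MI4OE, was also higher in MI4OE, and its part in the Smad7 difference was not tested.

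**Figure D2:**
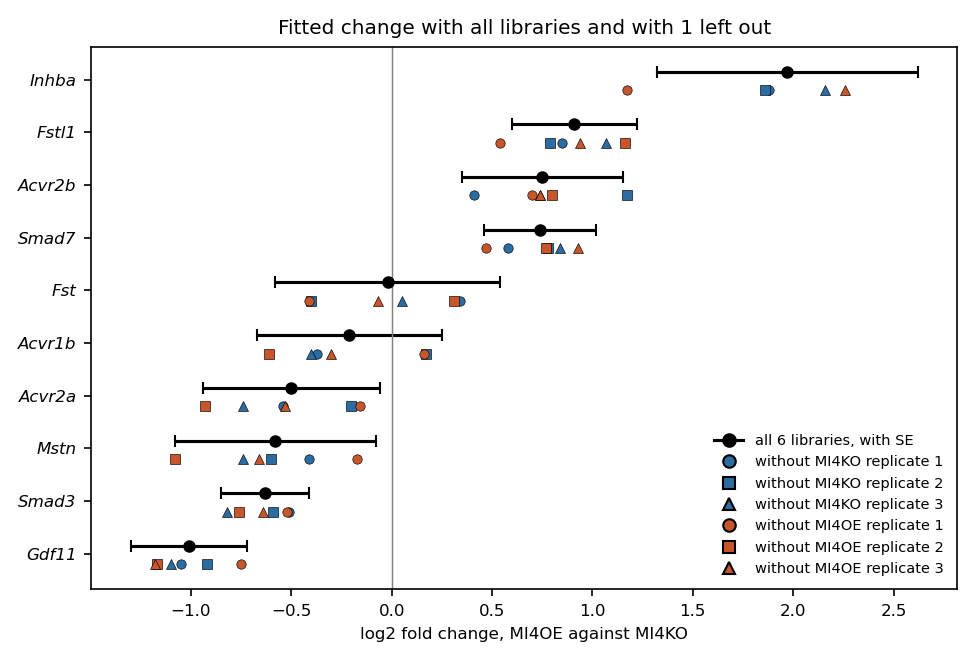
Log2 fold change (MI4OE against MI4KO) of each of the 10 genes with all 6 libraries (black, bars are SE) and with each library left out in turn (coloured by the group and shaped by the replicate left out). Gdf11 stays between -1.18 and -0.75, Acvr1b runs from -0.61 to 0.17 and Fst from -0.41 to 0.34, and Inhba has no value without MI4OE replicate 2, where it missed the low-count filter.

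Levels were compared between genes as TPM (transcripts-per-million), which takes transcript length into account, with 1 transcript model per gene. In MI4KO, Mstn was highest at 51.4 ± 9.52 TPM (SD, n = 3), followed by Smad3 at 28.7 ± 7.32, Acvr1b at 17.5 ± 9.88, Fstl1 at 9.99 ± 2.35 and Gdf11 at 8.4 ± 2.28. Acvr2a followed at 4.68 ± 2.35, Smad7 at 2.17 ± 0.689, Acvr2b at 2.16 ± 1.41, Fst at 0.797 ± 0.329 and Inhba at 0.203 ± 0.0551 TPM. Between neighbours in that order, only the ranges of Mstn and Smad3, of Acvr2a and Smad7, and of Fst and Inhba did not overlap. In MI4OE, Mstn was again highest by mean, at 37.3 ± 25.3 TPM, but its range overlapped that of Smad3, at 19.5 ± 4.74. Fstl1 came next at 19.1 ± 6.34 TPM, and Inhba, at 0.833 ± 0.561, was next to Fst, at 0.853 ± 0.361. On this scale the groups overlapped for Acvr2b, with 3.62 TPM in MI4KO replicate 2 and 3.53 in MI4OE replicate 2, and did not for Fstl1, with at most 12.4 TPM in MI4KO and at least 12.9 in MI4OE. In MI4OE replicate 1, Fstl1 reached 25.6 TPM and Mstn only 10.5.

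**Figure D3:**
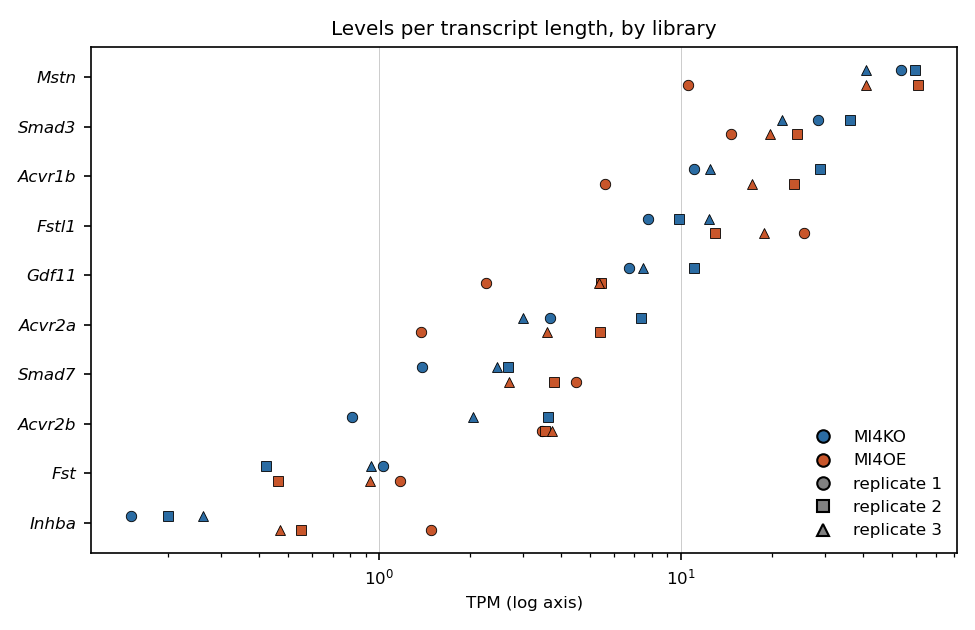
Level of the 10 genes in TPM (log axis), ordered by the MI4KO mean, with a point per library, coloured by group and shaped by replicate. Mstn leads in both groups by mean, at 51.4 TPM in MI4KO and 37.3 in MI4OE, and Inhba is lowest at 0.203 and 0.833.

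Ratios of TPM within a library set the components against one another. Smad3 exceeded Smad7 20.6-, 13.6- and 8.74-fold in MI4KO and 3.26-, 6.38- and 7.32-fold in MI4OE, with no overlap. This pairs a member lower by mean in MI4OE with one higher, and no share over other gene pairs was computed. Mstn exceeded Inhba 357-, 298- and 158-fold in MI4KO and 7.09-, 110- and 86.7-fold in MI4OE, also without overlap but resting on few Inhba counts. The ratios of Fstl1 and of Fst to Mstn overlapped between the groups. Acvr2a was 4.54, 2.03 and 1.46 times Acvr2b in MI4KO and 0.396, 1.52 and 0.962 times in MI4OE, where the ranges overlapped. Mstn was 7.97, 5.42 and 5.47 times Gdf11 in MI4KO and 4.65, 11.2 and 7.62 times in MI4OE, which also overlapped. The most even ratio was that of the type I receptor Acvr1b to the type II receptor Acvr2a, at 3.0, 3.92 and 4.17 in MI4KO and 4.09, 4.4 and 4.81 in MI4OE.

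MI4OE replicate 1 was either the lowest or the highest library for every one of the 10 genes by CPM. It was lowest for Mstn, Gdf11, Acvr2a, Acvr1b and Smad3 and highest for Inhba, Fst, Fstl1, Acvr2b and Smad7, for Fst with 1.77 CPM against 1.76 in MI4KO replicate 1. Over all genes tested it was lowest for 30.4% and highest for 31.5%, or extreme for 62.0%. The 3 genes whose log2(CPM + 1) followed Mstn most closely over the 6 libraries, among 11311 genes, were Phkg1 (Pearson's r = 0.999), a phosphorylase kinase subunit, the glucose transporter gene Slc2a3 (r = 0.998) and Atp2a1 (r = 0.997), the calcium pump of fast fibres. Phkg1 measured 574, 508 and 463 CPM in MI4KO and 275, 538 and 457 in MI4OE, so it too was lowest in MI4OE replicate 1. These correlations are a description over 6 points that share 1 outlying library.

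**Figure D4:**
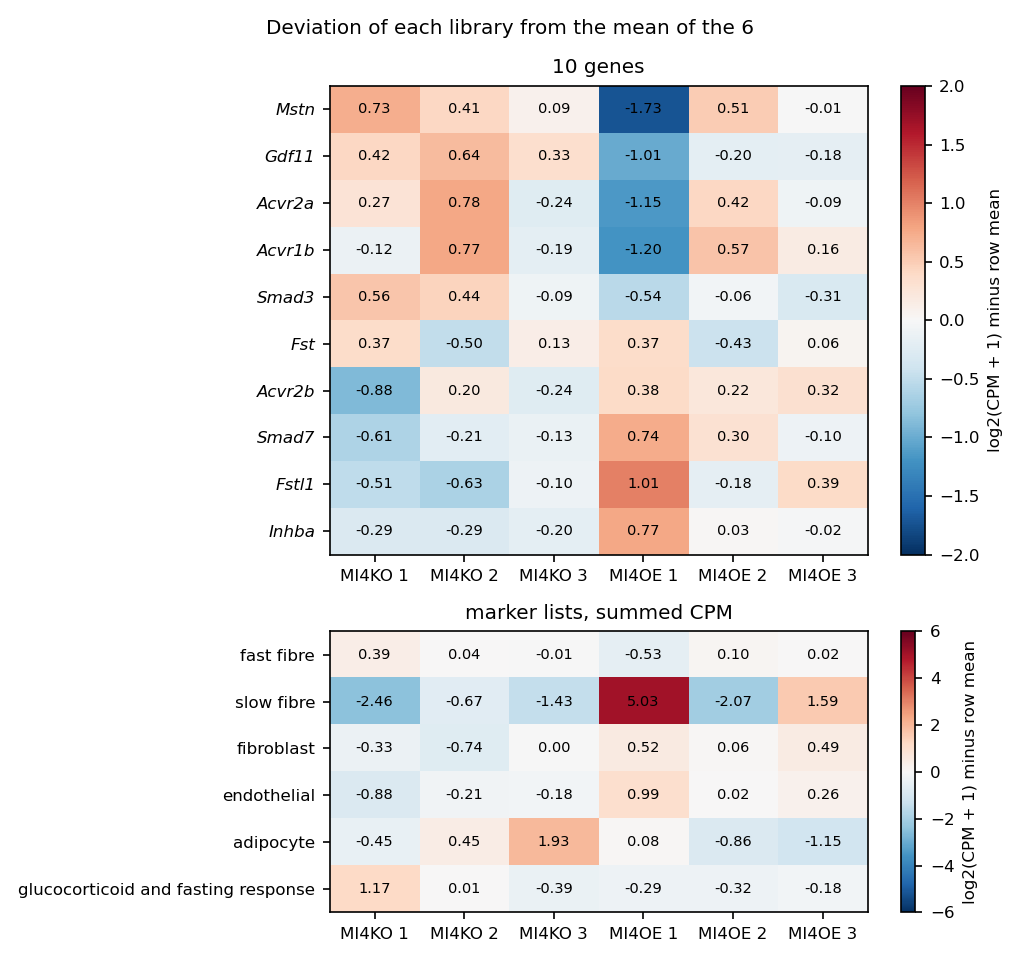
Deviation of each library from the mean of the 6, as log2(CPM + 1), for the 10 genes (upper panel) and for the summed CPM of 6 marker lists (lower panel, wider colour scale). MI4OE replicate 1 is -1.73 for Mstn and 1.01 for Fstl1, beside 5.03 for the slow fibre list and -0.53 for the summed fast fibre list, in which Myh1 and Myh2 went the other way.

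Of 59 other genes of the pathway, 50 passed the low-count filter, and 26 were higher and 24 lower in MI4OE, around a median log2 difference of 0.03. None passed an adjusted p of 0.05, and 6 met the looser criterion, against 6.64% of all genes tested. Without MI4OE replicate 1 the criterion was met by 3, against 4.56% of all genes, and without MI4OE replicate 2 by 9, against 10.2%. Of the 8 ligands tested, 7 were higher and 1 lower. Tgfb1 measured 5.61, 4.04 and 6.38 CPM in MI4KO and 14.9, 6.71 and 9.14 in MI4OE, without overlap (log2 fold change 0.93, SE 0.32, adjusted p = 0.556). Inhbb, which encodes the subunit of activin B, went the other way from Inhba. It measured 1.15, 1.62 and 2.89 CPM in MI4KO and 1.18, 0.385 and 0.486 in MI4OE (log2 fold change -1.49, SE 0.55, unadjusted p = 0.0269, adjusted p = 0.577). The adipocyte list, with a median log2 fold change of -3.62, was lower in the same group, and its part in the Inhbb difference was not tested.

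Among 10 antagonists and processing factors, 6 were higher and 3 met the looser criterion, all 3 higher, against 4.36% of all genes tested. These were Nog, the BMP antagonist noggin (log2 fold change 0.91), Bmp1, a protease that frees myostatin from its propeptide (0.90), and Dcn, the matrix proteoglycan decorin (0.81). Dcn also stood in the fibroblast list and measured 128, 84.5 and 133 CPM in MI4KO and 224, 160 and 223 in MI4OE. The follistatin-like antagonist Fstl3 measured 1.76, 1.27 and 2.12 CPM in MI4KO and 2.07, 2.24 and 2.65 in MI4OE (log2 fold change 0.43, adjusted p = 0.806). Wfikkn2, a secreted binder of myostatin and GDF11, measured 17.8, 20.6 and 16.6 CPM in MI4KO and 14.3, 22.4 and 19.4 in MI4OE (0.03, adjusted p = 0.986). The MI4OE range enclosed that of MI4KO.

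Of 10 further receptors and co-receptors, 4 were higher and 6 lower. Acvrl1, an endothelial type I receptor, met the looser criterion (6.64% of all genes), at 7.7, 9.15 and 11.2 CPM in MI4KO and 18.5, 12.4 and 13.1 in MI4OE (log2 fold change 0.65, adjusted p = 0.557). The co-receptor Eng, also endothelial, was higher by 0.76 on the log2 scale (adjusted p = 0.663), and the endothelial list was higher in MI4OE. Tgfbr1, the other type I receptor used by myostatin, had -0.61 (adjusted p = 0.736), and Bmpr2 had -0.36 (adjusted p = 0.851). Of 14 further SMADs and their regulators, 4 were higher, 10 lower and none met the looser criterion (6.64% of all genes).

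Smad2, the partner of Smad3, measured 12.9, 13.5 and 13.0 CPM in MI4KO and 10.6, 13.2 and 11.8 in MI4OE (log2 fold change -0.15, adjusted p = 0.867). The shared partner Smad4 measured 36.2, 48.4 and 34.6 CPM in MI4KO and 22.5, 44.2 and 38.2 in MI4OE (-0.18, adjusted p = 0.904), and Nedd4l, a ubiquitin ligase acting on SMADs, had -0.44 (adjusted p = 0.729). Of 8 SMAD target genes, 5 were higher and 3 lower, and none met the looser criterion (6.64% of all genes). Id3, a target of BMP signalling, measured 8.76, 10.1 and 15.4 CPM in MI4KO and 34.4, 12.8 and 12.7 in MI4OE (0.80, adjusted p = 0.729). Only MI4OE replicate 1 lay above the MI4KO range. Pmepa1, a target of SMAD3, had a log2 difference of -0.37 (adjusted p = 0.73).

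**Figure D5:**
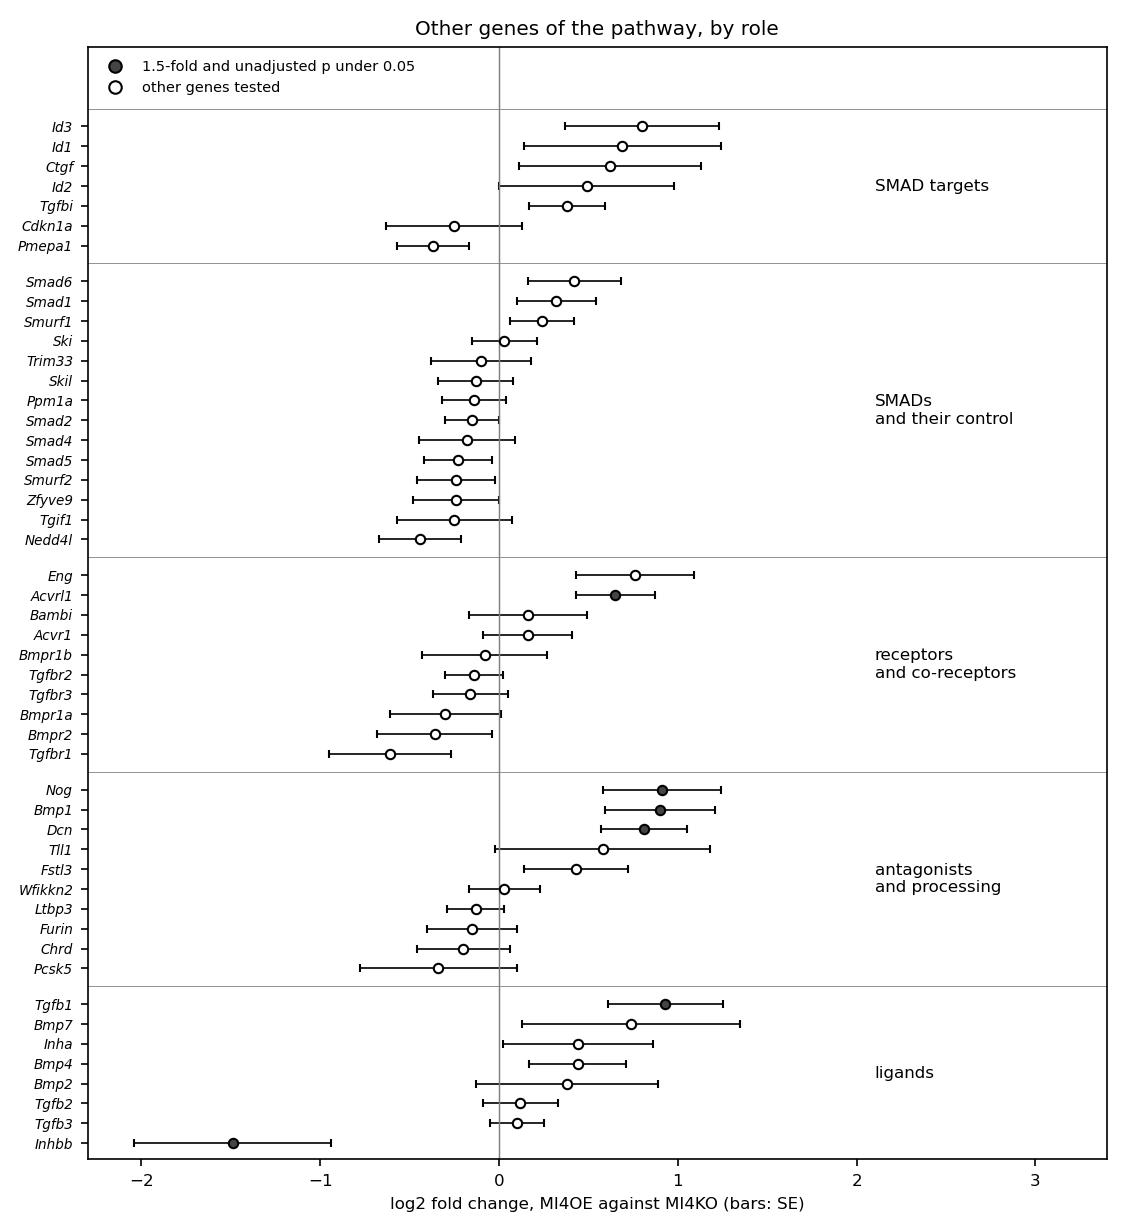
Log2 fold change (MI4OE against MI4KO, points, with SE as bars) of the other pathway genes tested, 1 left out, grouped by role. The 6 filled points met the 1.5-fold and unadjusted p criterion, 5 higher and Inhbb lower at -1.49.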

How the data were processed

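Gastrocnemius RNA was sequenced with 50-base reads from 6 stranded, mRNA-enriched libraries. According to the labels and methods, the authors converted reads with bcl2fastq 2.17, aligned them to a UCSC transcript set with Bowtie2 2.1.0 and quantified them with RSEM 1.2.15. The genome build was not given in the sources used here. The expected counts deposited per gene are raw RSEM estimates, and the deposited TPM values are the authors' length-adjusted abundances. Tables of the authors' own comparison (signed fold change, p-values, false discovery rates and scaled CPM) were not used.

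Expected counts were rounded and tested in R 4.3.3 with edgeR 4.0.16 (glmQLFit and glmQLFTest, TMM factors, filterByExpr with a minimum count of 10 and a minimum total of 15), MI4OE against MI4KO, with no covariate and 3 libraries per group. Groups came from the genotype label, and 12660 of 24054 genes were tested. CPM values are TMM-normalised. In these libraries 3 counts came to between 0.101 and 0.148 CPM. The looser criterion (1.5-fold, unadjusted p under 0.05) follows the study. The alternatives were DESeq2 1.42.0, edgeR's exact test, limma 3.58.1 on log2(TPM + 1) and log2(TPM + 0.1), other filters and scalings, and leaving out each library. The method was tested on simulated data. The members and gene lists were chosen with earlier results of these data known. Named were the 10 members, Irf4, 6 set pathway genes, up to 6 further pathway genes per direction with the largest log2 fold change at a mean CPM of at least 1, and the 3 genes most like Mstn. A gene that this rule names is not reported here, though the counts include it. Acvrl1 was named as 1 of the 6 past the criterion after its values were seen. Shares of transcripts within a gene could not be computed, since each member had 1 transcript. Promoters came from RefSeq (GRCm38.p6), which matched 8 of the 10 members.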

Additional observations from a re-analysis of the deposited data

How the results depend on the processing

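No member passed an adjusted p of 0.05 under any of 15 alternatives. The number meeting the 1.5-fold criterion was 5, against 6.64% of all genes. Total-count scaling gave 4 (Smad3 lost at -0.53), against 6.41%. At a mean CPM of at least 1 (Inhba not tested) it was 4, against 6.3%. Limma on log2(TPM + 1) gave 2 (Inhba, Smad3 and Smad7 lost), against 3.7%. On log2(TPM + 0.1) it gave 3 (Smad3 and Smad7 lost), against 5.81%. Leaving out a library gave 1 to 5, against 4.56% to 10.2% of all genes. The count was 1 without MI4OE replicate 1 (4.56%) or MI4KO replicate 1 (4.88%) and 2 without MI4KO replicate 2 (6.33%). Members without overlap numbered 4, and 4 to 7 with a library left out (7 without MI4OE replicate 2). Fewer libraries separate more often, and the share over all genes rose from 12.9% to between 17.7% and 28.0%. The members' median ran from -0.61 (without MI4OE replicate 2, 9 members) to 0.00, and that of the other pathway genes from -0.07 to 0.11, with -0.08 at a mean CPM of at least 1. The other pathway genes meeting the criterion ran from 3 without MI4OE replicate 1 (4.56% of all genes) to 9 without MI4OE replicate 2 (10.2%). Over all genes, adjusted calls were 3 in the main test, 111 by DESeq2, 108 by the exact test and 1 to 4 with a library left out, and 841 met the criterion, 468 by limma on log2(TPM + 1) and 590 to 1314 with a library left out. The sign of Fst turned with total-count scaling (0.12), log2(TPM + 1) (0.04), log2(TPM + 0.1) (0.09), and left-out libraries (-0.41 to 0.34), and that of Acvr1b with left-out libraries (-0.61 to 0.17). The cause was not tested. Total-count scaling moved the median of all genes to 0.09. No paired analysis was possible because libraries were numbered by order of deposition, which pairs none of them. Inhba, at 4 to 29 counts, is limited by depth.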

Other observations

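Of the 9 pathway genes too low to be tested, Acvr1c, a type I receptor for activin B that is used by adipocytes, was chosen after its values were seen. It had 7, 18 and 31 counts in MI4KO and 1, 8 and 3 in MI4OE, or 0.287, 0.713 and 1.04 CPM and 0.0492, 0.28 and 0.132 CPM. By CPM the groups did not overlap, though the closest libraries, with 7 and 8 counts, cannot be separated at this depth. The adipocyte list was lower in MI4OE as well, with a median log2 fold change of -3.62 over 7 markers, and its part in these values was not tested.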
